A study of Homo sapiens with 9 samples.

Results

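The miR-34 family was read from 3 rows of the count table, hsa-mir-34a, hsa-mir-34b and hsa-mir-34c, out of 1485 miRNA hairpins. The members were taken by name and all 3 were counted in all 9 libraries. A row is a hairpin, so its value sums the small RNAs of both hairpin arms.

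HEK293E, a kidney-derived line that expresses a viral episome-maintenance protein, was transfected on day 0 and day 3 and harvested on day 5. It received siGFP (2 libraries), siControl (2), siERH-3 (2) or siERH-5 (1). K562, a chronic myeloid leukaemia line with erythroid features, was electroporated once and harvested after 4 days, with siGFP (1 library) or siERH-5 (1). siERH-3 and siERH-5 are separate siRNAs against ERH, a small nuclear protein that works with the Microprocessor, the complex that cuts primary miRNA transcripts. siGFP and siControl are the control siRNAs, and the target of siControl is not given in the labels. No label says that the replicates came from separate cultures, so the p-values measure only the spread between these libraries, which may be technical. ERH mRNA is not part of a small RNA count table, so the knockdown was not checked here.

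Mature miRNAs pair with messenger RNAs mainly through their seed and lower the output of those messages. The miR-34 miRNAs are known to be raised after DNA damage and to repress cell-cycle and survival genes such as CDK6, MET and BCL2. As general background, miR-34a is made in many tissues, whereas the miR-34b and miR-34c pair is best known from ciliated epithelium and testis.

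The mature sequences are shown because they place hsa-mir-34a and hsa-mir-34b in seed groups and show miRNAs outside the family with the same seeds. They were taken from RefSeq (GRCh38.p14) and are written 5′ to 3′ with the seed, bases 2 to 8, in capitals.
hsa-miR-34a-5p: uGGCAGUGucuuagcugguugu
hsa-miR-449a: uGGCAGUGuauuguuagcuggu
hsa-miR-449b-5p: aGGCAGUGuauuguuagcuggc
hsa-miR-34b-5p: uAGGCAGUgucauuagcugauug
hsa-miR-449c-5p: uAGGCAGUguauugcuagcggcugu
hsa-miR-2682-5p: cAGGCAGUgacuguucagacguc
hsa-miR-34a-3p: cAAUCAGCaaguauacugcccu
hsa-miR-34b-3p: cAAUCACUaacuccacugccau
hsa-miR-34c-3p: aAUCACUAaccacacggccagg
hsa-miR-34a-5p, hsa-miR-449a and hsa-miR-449b-5p share the seed GGCAGUG. hsa-miR-34b-5p, hsa-miR-449c-5p and hsa-miR-2682-5p hold the same letters moved by 1 base, AGGCAGU. hsa-miR-34c-5p was not analysed here, so these seed groups do not place the 5p product of hsa-mir-34c. The 3p arms of hsa-mir-34b and hsa-mir-34c matched at 17 of 21 aligned bases.

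The hairpins show how far the members differ outside the seed, which bears on whether a read can belong to more than 1 of them. Both mature arms are in capitals.
hsa-mir-34a: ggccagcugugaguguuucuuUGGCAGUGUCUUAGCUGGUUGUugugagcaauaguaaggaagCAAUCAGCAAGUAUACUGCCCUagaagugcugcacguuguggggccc
hsa-mir-34b: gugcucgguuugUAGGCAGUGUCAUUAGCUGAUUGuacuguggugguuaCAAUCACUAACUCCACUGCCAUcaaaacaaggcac
The longest run of identical bases was 9 between hsa-mir-34a and hsa-mir-34b, 8 between hsa-mir-34a and hsa-mir-34c, and 11 between hsa-mir-34b and hsa-mir-34c. All are shorter than the 18-nt lower bound of the purified fragments. hsa-mir-449a and hsa-mir-449b share a run of 20 bases, so their counts may share reads. hsa-mir-449b and hsa-mir-449c share a run of 19 that does not lie wholly within their mature 5p sequences. Those sequences matched at 18 of 22 aligned bases. Sharing of reads between these hairpins was not tested.

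The members sit at separate loci. MIR34A lies at chr1:9151668-9151777 (GRCh38, minus strand) in an exon of the long noncoding RNA gene MIR34AHG in GENCODE 29. MIR34B (chr11:111512938-111513021) and MIR34C (chr11:111513439-111513515) lie on the plus strand, 417 bases apart. GENCODE 29 places no same-strand host gene over this pair, whereas RefSeq places both within MIR34BHG (chr11:111510602-111513888). The protein-coding gene BTG4, on the other strand, begins 583 bases from MIR34B in GENCODE 29, and its RefSeq model spans the pair.

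Total counts ran from 2609929 to 3320017 per library, with 1208 to 1297 hairpins detected in HEK293E and 1061 and 1163 in K562. The 5 hairpins fixed as blood and erythroid markers (hsa-mir-451a, hsa-mir-144, hsa-mir-486-1, hsa-mir-142, hsa-mir-223) summed to 932 to 1527 CPM in the HEK293E libraries. In the K562 libraries they summed to 217875 CPM (siGFP) and 170800 CPM (siERH-5), so the lines match their labels. CPM here is the count per 1000000 counts of the library after TMM scaling, which sets library sizes from the bulk of hairpins, over all 9 libraries. The libraries hold fragments of 18 to 30 nt, so levels of different hairpins are compared without division by length. Whether different sequences were captured equally was not tested.

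hsa-mir-34a was the abundant member in HEK293E and the family was nearly all hsa-mir-34a there. Its counts were 25654 and 20463 with siGFP, 37743 and 29990 with siControl, 36672 and 34312 with siERH-3, and 25932 with siERH-5. It ranked between 21st and 39th among the hairpins of each HEK293E library. In CPM its level was 7189 ± 708 (SD, n = 2) with siGFP, 11081 ± 925 (n = 2) with siControl and 8301 ± 1701 (n = 3) over the siERH libraries. The siERH libraries overlapped the controls, with siERH-5 the lowest of the 7 and both siERH-3 libraries between siGFP and siControl.

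hsa-mir-34b was counted 27 and 29 times with siGFP, 103 and 126 times with siControl, 340 and 326 times with siERH-3, and 215 times with siERH-5. All 3 siERH libraries were above all 4 controls in CPM, and the siControl libraries were in turn above the siGFP libraries. Such a full separation upward was seen for 24.1% of the 773 hairpins tested. The level was 8.97 ± 2.73 CPM (SD, n = 2) with siGFP, 37.9 ± 8.33 CPM (n = 2) with siControl and 75.6 ± 19.8 CPM (n = 3) with siERH.

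hsa-mir-34c, its neighbour, was counted 132 and 67 times with siGFP, 485 and 233 times with siControl, 864 and 763 times with siERH-3, and 523 times with siERH-5. The groups overlapped, since siERH-5 at 128.3 CPM was below the first siControl library at 150.8 CPM. The level was 29.8 ± 6.53 CPM (SD, n = 2) with siGFP, 115.9 ± 49.3 CPM (n = 2) with siControl and 184.4 ± 50.1 CPM (n = 3) with siERH. For both hairpins of this locus the order of the means was siGFP, siControl, siERH-5, siERH-3. For hsa-mir-34c the siERH-5 value lay between the siControl libraries, which come from different replicates. Within replicate 2, siERH-5 was 1.58 times siControl for hsa-mir-34c and 1.20 times for hsa-mir-34b.

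**Figure D1:**
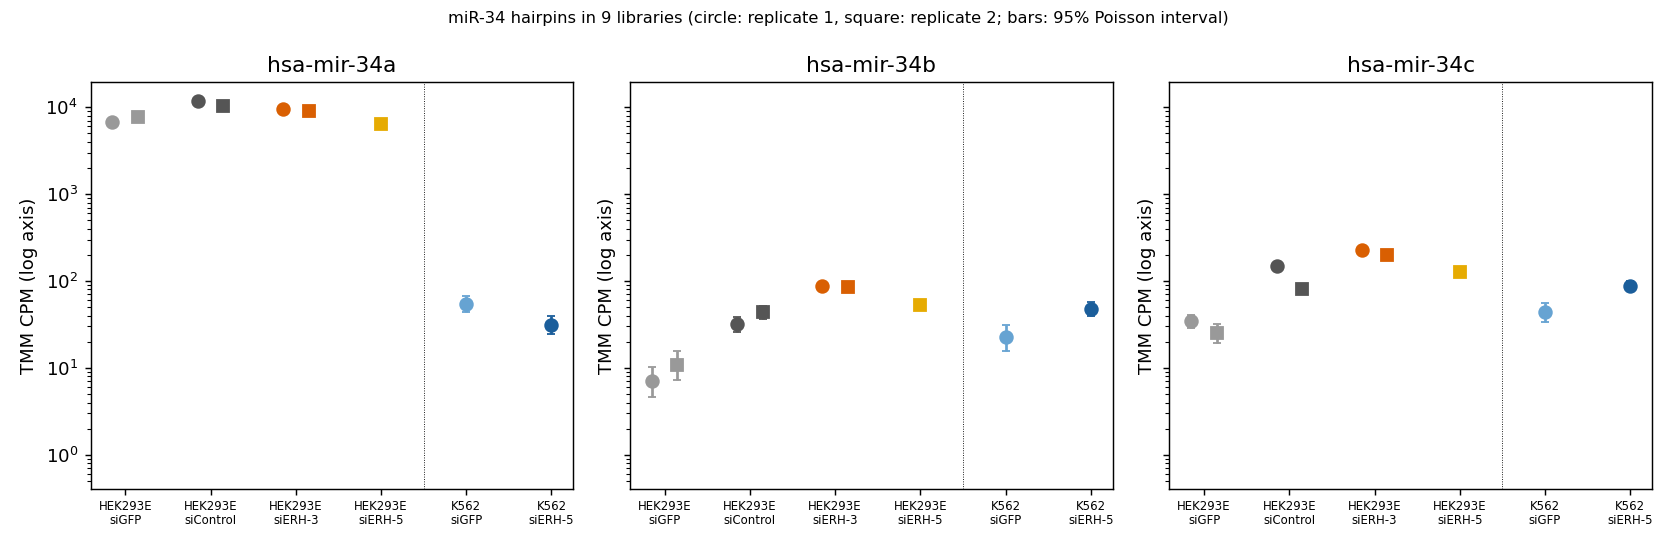
Level of each miR-34 hairpin in each library, in TMM CPM on a shared log axis, by cell line and siRNA. Points are libraries, and the bars are 95% Poisson intervals of the counts. hsa-mir-34a lies between 6360 and 11734 CPM in HEK293E and at 55.1 and 31.3 CPM in K562, whereas hsa-mir-34b and hsa-mir-34c are ordered from siGFP through siControl to siERH-3 within HEK293E.

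Between the lines, hsa-mir-34a showed the large difference. In K562 the siGFP library held 86 counts (95% Poisson interval 68.8 to 106) and the siERH-5 library 75 (59.0 to 94.0), against at least 20463 in every HEK293E library. In the siGFP libraries this was a level 128 times lower in K562, a log2 ratio of -7.00 with a counting interval of -7.33 to -6.70. It ranked 730th of 741 hairpins when ordered from the highest ratio, and 37.9% of these hairpins were at least 2-fold lower in K562. The median ratio of all 741 was -0.44. K562 has 1 library per siRNA, so the difference has no replicate check, and line, transfection method, harvest time and experimental group cannot be told apart.

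The hairpins of chromosome 11 did not follow. With siGFP, hsa-mir-34b had 35 counts (22.4 CPM) in K562, against 27 and 29 counts (7.04 and 10.9 CPM) in HEK293E. hsa-mir-34c had 68 counts (43.6 CPM) in K562, against 132 and 67 counts (34.4 and 25.2 CPM). The log2 ratios of K562 to HEK293E were 1.23 for hsa-mir-34b and 0.53 for hsa-mir-34c, but the sign for these hairpins was set by choices of scaling and control. On library totals the ratios were 0.43 and -0.34, and against all 4 HEK293E controls they were -0.06 and -0.73, so no direction is stated. For hsa-mir-34a the same choices gave -7.86 and -7.35.

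Within K562, the family was therefore composed differently. hsa-mir-34b and hsa-mir-34c together made up 54.5% of the family's 189 counts with siGFP (95% Wilson interval 47.4 to 61.4). In the HEK293E siGFP libraries they made up 0.616% (0.528 to 0.719) and 0.467% (0.383 to 0.570). These intervals cover counting error only, as do all counting intervals given here. All 4 hairpins listed as HEK293E markers (hsa-mir-124-1, hsa-mir-9-1, hsa-mir-10b, hsa-mir-196a-1) were also counted in K562. They summed to 1779 and 1648 CPM there, against 7349 to 9858 CPM in the HEK293E libraries, and none was at 0. They ranged in the K562 siGFP library from 2 counts of hsa-mir-124-1 to 2074 of hsa-mir-9-1. With siGFP, hsa-mir-124-1 was at 1.28 CPM in K562 against 191 in HEK293E, and hsa-mir-10b at 35.9 against 4162. For hsa-mir-196a-1 the levels were 412 against 879 CPM, and for hsa-mir-9-1 1330 against 2454. Whether the K562 counts of hsa-mir-34a are related to those of these markers was not tested.

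The comparison of siERH with control in HEK293E asked how the family behaved when ERH was targeted. hsa-mir-34b rose by 1.75 ± 0.50 on the log2 scale (SE, adjusted p = 0.0183 in edgeR), and ranked 29th of 773 hairpins by fold and 223rd by p. hsa-mir-34c rose by a log2 fold change of 1.39 ± 0.51 with an adjusted p of 0.0498 (edgeR), close to the threshold of 0.05. For hsa-mir-34a the value was -0.09 ± 0.22 (adjusted p = 0.781). Thus 2 of 3 members were called higher, on a background where 23.8% of the 773 hairpins tested were called higher and 16.2% lower. The median over all hairpins was -0.01. The members called higher are neighbours at the same locus, and hsa-mir-34a, at the other locus, was not called.

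The calls for hsa-mir-34c depended on which libraries and hairpins entered. In edgeR fits that left out 1 library, its log2 fold change ran from 1.09 to 2.04, and of the 7 fits it was called only in the one without siControl replicate 1 (2.04, adjusted p = 0.00633). The adjusted p in the other 6 fits was between 0.0685 and 0.127. It was also not called when the count minimum was raised to a mean of 100 (1.46, adjusted p = 0.0620). With the replicate number as a block the log2 fold change was 1.54 with an adjusted p of 0.0109, where 28.1% of hairpins were called higher. hsa-mir-34b was called without each library except siERH-3 replicate 2, where the value was 1.65 (adjusted p = 0.0577). Scaling by library totals moved the median of all hairpins to 0.19 and the calls from 184 higher and 125 lower to 212 higher and 67 lower. hsa-mir-34a was then at 0.11, still below that median.

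The size of the siERH difference followed the control. Against siGFP alone, edgeR gave log2 fold changes of 3.13 ± 0.36 for hsa-mir-34b and 2.67 ± 0.32 for hsa-mir-34c (adjusted p = 0.00163 for both), where 17% of 787 hairpins were called higher. Against siControl alone, edgeR put hsa-mir-34b at 1.02 ± 0.30 (adjusted p = 0.0320) and hsa-mir-34c at 0.68 ± 0.34 (adjusted p = 0.150). In that fit 18.3% of 788 hairpins were called higher. By fold the pair ranked 9th and 11th of 787 against siGFP, and 140th and 210th of 788 against siControl. With the replicate block hsa-mir-34c also passed against siControl (0.84, edgeR adjusted p = 0.0238), and the share called higher was 25.3%. hsa-mir-34a was at 0.25 against siGFP (adjusted p = 0.442) and -0.40 against siControl (adjusted p = 0.151), so its sign turned with the control. These comparisons share the siERH libraries.

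**Figure D2:**
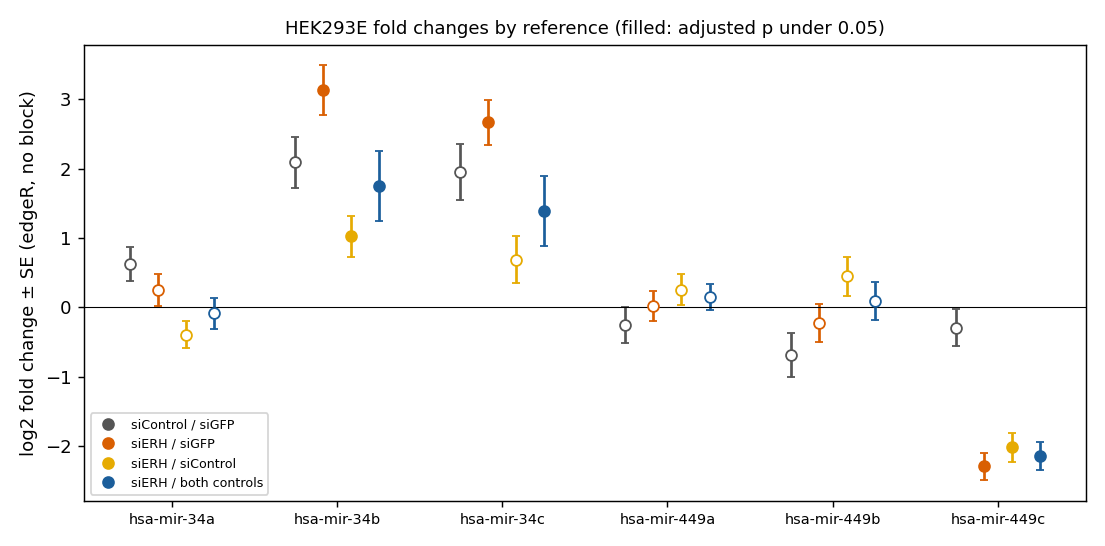
edgeR log2 fold changes with standard errors in HEK293E for the miR-34 and miR-449 hairpins, for siControl against siGFP and for siERH against each control set. Filled points have an adjusted p under 0.05 without a replicate block. hsa-mir-34b goes from 3.13 against siGFP to 1.02 against siControl, whereas hsa-mir-449c stays between -2.30 and -2.02.

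Between the control siRNAs, the hairpins of the chromosome 11 locus had the most positive values of all hairpins tested. siControl was 4.55 times siGFP in replicate 1 and 4.02 times in replicate 2 for hsa-mir-34b, and 4.38 and 3.22 times for hsa-mir-34c. The edgeR log2 fold changes were 2.09 ± 0.37 and 1.95 ± 0.40, the highest and second highest of the 730 hairpins tested. hsa-mir-34a was 1.75 and 1.36 times higher, with a log2 fold change of 0.62 ± 0.24, the 33rd highest.

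Whether these differences passed the test depended on the fit. Without the block edgeR called 0 of 730 hairpins (0%), with 24 at an unadjusted p under 0.05, and the adjusted p was 0.425 for hsa-mir-34b, 0.470 for hsa-mir-34c and 0.959 for hsa-mir-34a. With the replicate block it called 72 hairpins higher (9.86%) and 61 lower (8.36%), and all 3 members were higher. The adjusted p-values in that fit were 8.03e-14 for hsa-mir-34b, 5.63e-22 for hsa-mir-34c and 7.71e-07 for hsa-mir-34a, on 4 libraries, where the fit leaves 1 degree of freedom per hairpin and borrows the spread across hairpins. DESeq2 without a block called 2 hairpins higher and 2 lower, among them hsa-mir-34b (adjusted p = 0.00996) and hsa-mir-34c (adjusted p = 0.00697).

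**Figure D3:**
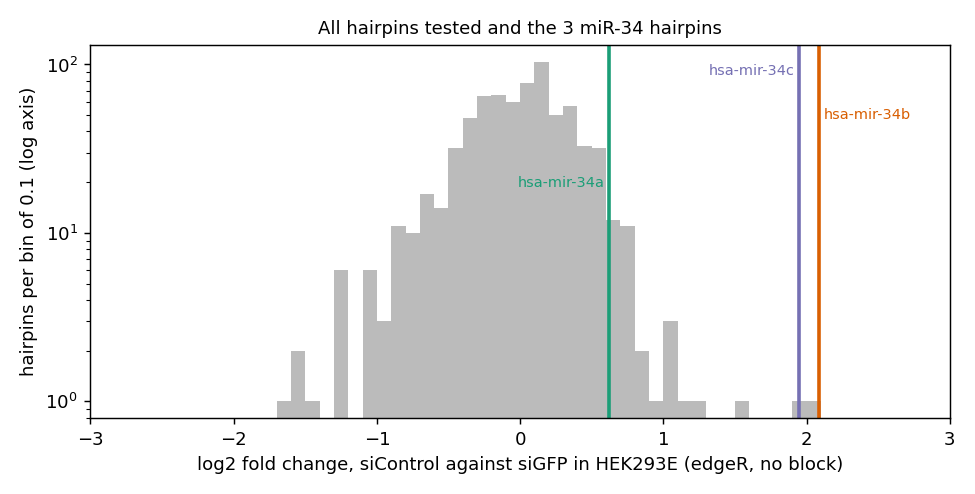
Distribution of edgeR log2 fold changes of siControl against siGFP over the 730 hairpins tested, with the number of hairpins per bin on a log axis. Lines mark the miR-34 hairpins; hsa-mir-34c at 1.95 and hsa-mir-34b at 2.09 form the right edge, and hsa-mir-34a is at 0.62.

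Each siERH library can be set against the controls of its own replicate. In replicate 1, siERH-3 was 12.6 times siGFP and 2.76 times siControl for hsa-mir-34b. In replicate 2 it was 7.85 times siGFP and 1.95 times siControl. siERH-5 was 4.84 times siGFP and 1.20 times siControl.

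For hsa-mir-34c the same ratios to siControl were 1.49, 2.47 and 1.58. All 3 siERH libraries were thus above the siControl library of their replicate for both hairpins, and below it for hsa-mir-34a, at 0.813, 0.864 and 0.610 times its level. Of the 773 hairpins tested, 36% were above siControl in this way and 37.1% below, so these directions are common among all hairpins. Within replicate 2 alone, edgeR gave 1.45 ± 0.43 for hsa-mir-34b (adjusted p = 0.0154) and 1.75 ± 0.41 for hsa-mir-34c (adjusted p = 0.00351), where 23.6% of 770 hairpins were called higher. Replicate 1 has 1 siERH library and was not fitted alone.

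By siRNA, siERH-3 against the 4 controls gave 1.96 ± 0.57 for hsa-mir-34b (edgeR adjusted p = 0.0331) and 1.60 ± 0.59 for hsa-mir-34c (adjusted p = 0.0685), where 19.1% of 759 hairpins were called higher. With the replicate block hsa-mir-34c passed (1.66, adjusted p = 0.0176), and 26.4% were called higher. siERH-5, with 1 library and no test, had log2 ratios to the replicate 2 controls of 0.92 for hsa-mir-34b (counting interval 0.61 to 1.22) and 1.26 for hsa-mir-34c (1.04 to 1.45). The ratio was -0.51 for hsa-mir-34a. Of the 760 hairpins compared, 15.1% were at least 2-fold higher.

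In K562 the signs were those of siERH-5 in HEK293E. With siERH-5, hsa-mir-34b went from 35 to 114 counts and hsa-mir-34c from 68 to 210, while hsa-mir-34a went from 86 to 75 in a deeper library. The log2 ratios were 1.05 (counting interval 0.53 to 1.67) for hsa-mir-34b, 0.99 (0.61 to 1.42) for hsa-mir-34c and -0.80 (-1.28 to -0.35) for hsa-mir-34a. The median of the 646 hairpins compared was 0.12, and 11.3% were at least 2-fold higher, as was hsa-mir-34b. There is 1 library on each side and no siControl library in K562, so no test was possible. The share of the family held by hsa-mir-34b and hsa-mir-34c went from 54.5% to 81.2% (Wilson interval 77.1 to 84.7).

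Ratios within a library do not depend on scaling. The log2 ratio of hsa-mir-34a to the sum of hsa-mir-34b and hsa-mir-34c was 7.33 and 7.73 with siGFP, 6.003 and 6.38 with siControl, 4.93 and 4.98 with siERH-3, and 5.13 with siERH-5. All siERH libraries were below all controls. The means were 5.01 ± 0.11 (SD, n = 3) for siERH and 6.86 ± 0.80 (n = 4) for control, a difference of -1.85 (exact two-sided permutation test, p = 0.0571, adjusted over the 2 ratios tested 0.114). The difference did not pass the threshold of 0.05, and the smallest unadjusted p this design allows is 0.0286. The adjusted p also depends on the p of the other ratio. With permutation within replicates the difference was -1.90 (exact p = 0.111). That test cannot go below 0.0556, so it could not pass. siControl minus siGFP was -1.34, with n = 2 each, where an exact test cannot go below 0.333. In the K562 libraries the ratio was -0.26 (siGFP) and -2.10 (siERH-5).

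The neighbours hsa-mir-34b and hsa-mir-34c had a ratio that varied over a narrower range. Its log2 value was -2.27 and -2.23 in the replicate 1 siGFP and siControl libraries and -1.19 and -0.88 in those of replicate 2. It was -1.34, -1.23 and -1.28 in the siERH libraries and -0.95 and -0.88 in K562. The controls thus separated by replicate and not by siRNA, and the siERH libraries lay between them. The difference of siERH from control was 0.36 (exact two-sided permutation test, n = 3 and 4, p = 0.429), and 0.23 with permutation within replicates (exact p = 0.667).

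**Figure D4:**
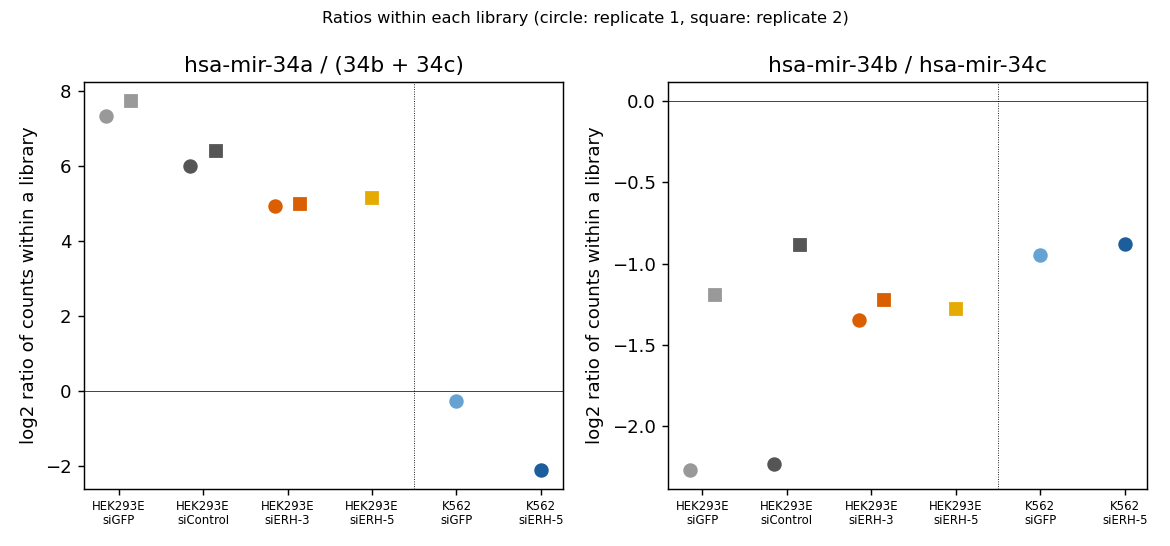
Log2 ratios of counts within each library, by cell line and siRNA, for hsa-mir-34a over hsa-mir-34b plus hsa-mir-34c (left) and hsa-mir-34b over hsa-mir-34c (right). On the left the HEK293E values fall from 7.33 and 7.73 with siGFP to between 4.93 and 5.13 with siERH; on the right the replicate 1 controls lie apart at -2.27 and -2.23.

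The seed relatives did not behave alike. The miR-449 cluster lies in an intron of CDC20B on chromosome 5, and its miRNAs act with miR-34b and miR-34c in multiciliated cells. Of the 4 relatives, 3 were tested, with 0 called higher and 1 lower, where 23.8% of all hairpins tested were called higher and 16.2% lower. hsa-mir-449c had 390 and 260 counts with siGFP, 251 and 244 with siControl, 76 and 72 with siERH-3, and 83 with siERH-5. All siERH libraries were below all controls, as for 21.6% of all hairpins. It fell by a log2 fold change of -2.14 ± 0.20 (edgeR adjusted p = 4.08e-05). Its 5p product has the seed of hsa-miR-34b-5p, whose hairpin rose.

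hsa-mir-449a and hsa-mir-449b, from the same cluster, were at 0.15 ± 0.19 (adjusted p = 0.560) and 0.09 ± 0.27 (adjusted p = 0.811). Between the control siRNAs, hsa-mir-449b was at -0.70 ± 0.32 (edgeR adjusted p = 0.959) and, with the replicate block, was called lower in siControl at -0.68 ± 0.24 (adjusted p = 0.0310). hsa-mir-2682, below the count minimum, had 20, 6, 4 and 4 counts in the controls and 1, 0 and 0 in the siERH libraries. In K562, all 3 miR-449 hairpins were lower than in HEK293E with siGFP, with log2 ratios from -3.76 to -2.80. Of the 741 hairpins compared, 37.9% were at least 2-fold lower in K562, which has 1 siGFP library. hsa-mir-449b had 3 counts there, with a counting interval of -6.04 to -2.18 on its ratio. With siERH-5 in K562, hsa-mir-449c had 12 counts against 10 with siGFP, a log2 ratio of -0.30 whose counting interval of -1.69 to 1.01 spans 0.

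**Figure D5:**
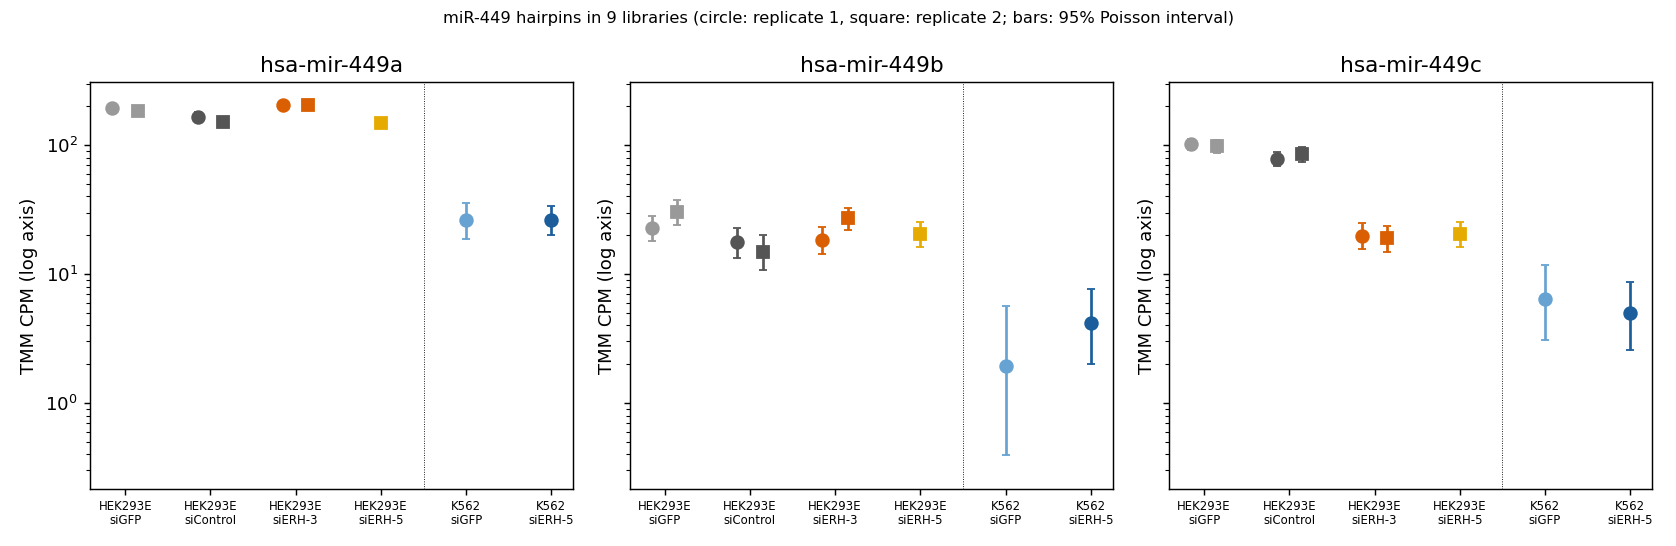
Level of the miR-449 hairpins in each library, in TMM CPM on a shared log axis, with 95% Poisson intervals of the counts. hsa-mir-449c lies between 78.0 and 101.7 CPM in the HEK293E controls and between 18.9 and 20.4 CPM in the siERH libraries, whereas hsa-mir-449a and hsa-mir-449b overlap.

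Likeness of pattern was measured as the root mean square difference of centred log2 levels over the 7 HEK293E libraries, against 770 other hairpins. It is a description, in which libraries share replicates and controls. hsa-mir-34c was nearer to hsa-mir-34b (0.47) than any of the 770, of which the nearest were hsa-mir-3133 (0.52), hsa-mir-548ay (0.58) and hsa-mir-143 (0.67). The nearest to hsa-mir-34c were hsa-mir-143 (0.45), hsa-mir-548t (0.52) and hsa-mir-369 (0.62). hsa-mir-34a was at 1.16 from hsa-mir-34b and 1.02 from hsa-mir-34c. By nearness to them it would be placed 246th and 212th among the 770, so many hairpins were less like each. Seen from hsa-mir-34a, hsa-mir-34b and hsa-mir-34c would be placed 752nd and 742nd. hsa-mir-34a was nearest to hsa-mir-551a (0.17), hsa-mir-92b (0.18) and hsa-mir-3197 (0.19).

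hsa-mir-143 had counts of 99 and 51 with siGFP, 178 and 105 with siControl, 304 and 286 with siERH-3, and 313 with siERH-5. As for hsa-mir-34b, all siERH libraries were above all controls, which was seen for 24.1% of the 773 hairpins tested. siControl was above siGFP in both replicates. hsa-mir-143 was picked for its likeness over these same HEK293E libraries, so a shared order there follows from the choice. In K562 it had 72 counts in the siGFP library and 226 in the siERH-5 library.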

How the data were processed

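The authors deposited a table of counts per miRNA hairpin and a table of RPM values, and both were read for 9 libraries. Per the submitters' processing notes, cutadapt, Bowtie2, bedtools and the hg38 build were used, with versions not given in the sources used here. Blank cells were read as 0. The deposited RPM equals the count plus 1 over the library total plus 1485, times 1000000, and served only for the limma alternative. Arms of a hairpin cannot be separated in these rows, and spike-in RNAs were not used, so changes are relative to the other hairpins.

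Tests used edgeR 4.0.16 in R 4.3.3 (quasi-likelihood), with TMM over the libraries compared and a minimum mean count of 10 per hairpin. Benjamini-Hochberg adjustment was over all hairpins tested, and the threshold was an adjusted p under 0.05. Only the fit of siERH against control without a block was run on simulated counts, which held no replicate effect. The other fits, with a block or with fewer libraries, were not simulated. Ratios without a test used TMM CPM plus 1, over hairpins that reach the same minimum, and the ratios within a library used counts plus 0.5. Replicate numbers match the experimental groups in the labels for HEK293E. Both K562 libraries are replicate 1 and belong to experimental group 3. Deviations of same-numbered libraries from their group means correlated at 0.698, 0.486 and 0.525 over 773 hairpins for the 3 pairs of siRNAs. The main fits had no block and so did not use this pairing. A fit with the replicate number as a block is given where it changes a call. Alternatives were DESeq2 1.42.0, limma 3.58.1, library totals, other filters and pseudocounts, other controls, and leaving out each library.

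The members and lists were chosen with earlier results of these data known. The text names the 3 members, their seed relatives and the 3 hairpins nearest in pattern to each member. Sequences came from RefSeq. Other lists of the design are not reported here.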

Additional observations from a re-analysis of the deposited data

How the results depend on the processing

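For siERH against control, scaling by library totals gave 67 lower and hsa-mir-34a at 0.11, limma on log2(RPM + 1) gave 58 lower and hsa-mir-34a at 0.12, and limma on log2(RPM + 10) gave 59 lower and hsa-mir-34a at 0.12. A mean of at least 100 left 63 lower, 82 higher and hsa-mir-34c at 1.46, not called. With siGFP as the only control hsa-mir-34a was at 0.25 and hsa-mir-449b at -0.23, without a filter hsa-mir-449b was at -0.0053, and with siControl as the only control hsa-mir-34c was at 0.68. Leaving out each library in turn gave 76 to 130 lower and 136 to 189 higher, -0.22 to 0.0806 for hsa-mir-34a, 1.43 to 2.21 for hsa-mir-34b and 1.09 to 2.04 for hsa-mir-34c. hsa-mir-449b ran from -0.0874 (without siERH-3 replicate 2) to 0.30 and was at -0.0586 without siControl replicate 2.

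For siERH-3 against control, library totals gave 48 lower and hsa-mir-34c at 1.79, DESeq2 gave hsa-mir-34c at 1.53, and limma gave 43 lower and hsa-mir-34c at 2.10 (RPM + 1) or 45 lower and 1.91 (RPM + 10), each time called. Without a filter hsa-mir-34a was at -0.0058, and a mean of at least 100 left 46 lower and 69 higher. The replicate block gave 142 lower and hsa-mir-34c at 1.66. Leaving out each library gave 19 to 102 lower and 42 to 152 higher, -0.0525 to 0.24 for hsa-mir-34a, 1.64 to 2.43 for hsa-mir-34b and 1.32 to 2.26 for hsa-mir-34c. hsa-mir-34b was not called without siERH-3 replicate 1 (1.98), siERH-3 replicate 2 (1.98) or siGFP replicate 2 (1.73), and hsa-mir-449b turned to -0.15 without siERH-3 replicate 2.

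For siControl against siGFP, DESeq2 gave 2 lower, 2 higher, hsa-mir-34b at 2.10 and hsa-mir-34c at 1.98, and edgeR without a filter 2 lower, 2 higher, 2.09 and 1.95. The replicate block gave 61 lower, 72 higher, and 0.62, 2.09 and 1.94 for hsa-mir-34a, hsa-mir-34b and hsa-mir-34c. Leaving out each library gave 0 lower and 0 to 1 higher, 0.50 to 0.73 for hsa-mir-34a, 1.80 to 2.42 for hsa-mir-34b and 1.41 to 2.36 for hsa-mir-34c. hsa-mir-34b was called without siControl replicate 1 (2.26) and siGFP replicate 2 (2.42), and hsa-mir-34c without siControl replicate 2 (2.36). Where leaving out a library left 1 in a group, here and for siERH-3, that library is assumed to vary like the other group, which alone supplies the spread.

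For siERH-5 against the replicate 2 controls, library totals gave -0.14, 1.31 and 1.65 for hsa-mir-34a, hsa-mir-34b and hsa-mir-34c, siGFP alone -0.27, 2.17 and 2.30, and siControl alone -0.71, 0.26 and 0.66. On library totals hsa-mir-449a and hsa-mir-449b were at 0.19 and 0.18, and against siControl alone hsa-mir-449b was at 0.42. For K562 against HEK293E, library totals gave -7.86, 0.43 and -0.34, and all 4 controls -7.35, -0.0606 and -0.73. Leaving out each library gave -2.13 to -1.56 for the ratio of hsa-mir-34a to the pair and 0.15 to 0.61 for that of hsa-mir-34b to hsa-mir-34c. The K562 values of siERH-5 moved by less than counting error under other pseudocounts and library totals. In these lists the cause was not tested. The block changed no call of a miR-34 hairpin other than those given here and in the results. Depth limits hsa-mir-34b with siGFP, at 27 and 29 counts, and every member in K562 with siGFP, at 35 to 86.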
